A study of Homo sapiens with 4 samples.

Results

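CALB2, UMODL1, APLP1 and B4GALNT1 are 4 genes with large fold increases after ALKBH5 knockdown in HaCaT cells, an established human keratinocyte line, and they are 4 of the 58735 genes listed and of the 15075 genes tested. They were taken by gene name, and the names were chosen by their fold change between siALKBH5 and siControl libraries, so their values in that comparison are given below as a description with no test. The study profiled poly-A RNA from wild-type HaCaT cells transfected by lipofection with an siRNA against ALKBH5 (siALKBH5, 2 libraries) or with a control siRNA (siControl, 2 libraries). ALKBH5 is a demethylase that removes N6-methyladenosine (m6A) from mRNA, and the comparison asks how gene expression differs once it is depleted. The transfected HaCaT line is 1 cell line, and the labels do not state whether the duplicate libraries came from separate cultures, so p-values measure only the spread between these libraries, which may be technical.

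Library totals ranged from 16017502 to 18837807 counts, and mitochondrial genes held 9.63% to 10.2% of them. ALKBH5 received 1512 and 1576 counts with the control siRNA and 956 and 816 with the ALKBH5 siRNA. Its level fell to 55.5% of that in siControl, from 90.7 ± 4.42 to 50.4 ± 1.13 CPM (counts relative to library size after TMM scaling; mean ± SD, n = 2), with no overlap between the groups. The fall in ALKBH5 was 0.85 on the log2 scale (SE 0.0525, adjusted p = 6.4e-15 by the edgeR quasi-likelihood test with Benjamini-Hochberg adjustment). All 10 keratinocyte markers examined, such as KRT5, were tested, and 4 rose, 4 fell and 2 did not pass (median log2 fold change -0.03). That is 40% in each direction, against 19.3% higher and 17.3% lower over all genes tested (adjusted p under 0.05). Their summed level was 18950 to 19290 CPM in siControl and 24380 to 24440 CPM in siALKBH5, a gain led by KRT5, while TP63, ITGA6, KRT17 and ITGB4 fell.

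The 4 genes belong to different families. CALB2 encodes calretinin, a cytosolic calcium-binding protein with EF-hand domains that is best known from neurons and mesothelial cells. UMODL1 encodes uromodulin-like 1, which carries a zona pellucida domain like the kidney protein uromodulin. APLP1 encodes a neuronal relative of the amyloid precursor protein APP, a transmembrane protein that secretases cut. B4GALNT1 encodes the enzyme that adds N-acetylgalactosamine to the gangliosides GM3 and GD3 and so makes GM2 and GD2. Gangliosides are sialic acid-bearing lipids of the outer cell membrane, and GM3 is the main one in epidermis.

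The promoters that RefSeq gives for APLP1 and for 2 starts of UMODL1 (GRCh38.p14, plus strand, from 250 bases before the start to 50 after it) are shown so that these start regions can be compared. Capitals mark each GC box (GGGCGG on either strand), and no marked match overlaps another. APLP1 lay at chr19:35868324-35868623 and the UMODL1 starts at chr21:42062627-42062926 and chr21:42071067-42071366.
APLP1: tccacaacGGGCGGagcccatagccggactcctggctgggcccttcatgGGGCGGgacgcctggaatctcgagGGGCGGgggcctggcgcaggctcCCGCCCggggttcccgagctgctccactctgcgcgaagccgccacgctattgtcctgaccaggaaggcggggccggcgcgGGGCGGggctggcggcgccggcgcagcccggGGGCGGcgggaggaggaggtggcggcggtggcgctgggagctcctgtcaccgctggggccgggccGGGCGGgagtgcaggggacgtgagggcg
UMODL1: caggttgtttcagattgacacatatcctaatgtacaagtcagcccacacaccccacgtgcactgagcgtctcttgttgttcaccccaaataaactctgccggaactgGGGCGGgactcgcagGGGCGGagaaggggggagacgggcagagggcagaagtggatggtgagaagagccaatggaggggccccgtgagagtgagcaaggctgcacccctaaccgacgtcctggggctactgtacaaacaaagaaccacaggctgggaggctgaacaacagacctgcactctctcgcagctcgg
UMODL1 second start: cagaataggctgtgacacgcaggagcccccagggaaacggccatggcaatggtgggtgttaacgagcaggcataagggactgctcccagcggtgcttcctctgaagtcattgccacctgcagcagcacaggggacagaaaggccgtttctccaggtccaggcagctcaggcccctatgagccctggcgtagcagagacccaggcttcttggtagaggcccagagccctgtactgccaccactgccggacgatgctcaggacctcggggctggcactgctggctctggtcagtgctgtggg

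The APLP1 window held 7 GC boxes, and 1.5% of the 35116 RefSeq promoters held as many or more. Its GC content was 77.7%, at the 94.6th percentile of all promoters, whose median was 58.7%. The first UMODL1 window held 2 GC boxes at a GC content of 58.0%, and 26.7% of all promoters held as many or more. The second UMODL1 window held 0 GC boxes at a GC content of 62.3%. Each UMODL1 window had 1 E-box (CANNTG, in 68.7% of all promoters), and the APLP1 window had none. TATAAA (11.5% of all promoters), the AP-1 site TGANTCA (7.71%) and the CRE TGACGTCA (1.85%) were found on neither strand in any of these 3 windows. The APLP1 window lies inside the gene as GENCODE 29 draws it and also within NPHS1, which runs on the opposite strand.

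The guide strands of the ALKBH5 siRNAs are shown because a short RNA can also pair with other mRNAs through its seed, bases 2 to 8, which is in capitals. The labels do not say which of them was transfected for these libraries.
ALKBH5-si1-antisense: uCGCCGAAgaaguacuugu
ALKBH5-si2-antisense: uAGUCGUUgaugacggcgc

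The site that pairs with the first seed, TTCGGCG, was absent from the longest coding transcript of each of the 4 genes and was present in 5.34% of 12500 such transcripts. The site for the second seed, AACGACT, occurred 1 time in the UMODL1 transcript and not in the other 3, against 6.31% of all transcripts. These transcripts were taken from GENCODE 29. That of CALB2 had 1466 bases in 11 exons, that of UMODL1 5516 bases in 23 exons, that of APLP1 2495 bases in 17 exons and that of B4GALNT1 3036 bases in 11 exons. The median over the 12500 transcripts was 3415 bases. Their GC content was 54.7% for CALB2, 55.3% for UMODL1, 63.2% for APLP1 and 61.9% for B4GALNT1, all above the median of 49.0%. GGACT, a common core of m6A sites, occurred 1 time in CALB2, 5 times in UMODL1, 1 time in APLP1 and 3 times in B4GALNT1. Per kilobase that came to 0.68, 0.91, 0.40 and 0.99 in the same order, against a median of 0.93. These values lay at percentiles 32.6, 48.1, 14.8 and 53.6, so only B4GALNT1 was above the median. The searches of the transcripts were added after the data were seen, and a match is no measured site.

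CALB2 (ENSG00000172137, chr16:71358713-71390438 on the plus strand of GRCh38) was close to the floor in control cells. Only 2 and 5 counts were assigned to it in siControl, against 65 and 84 in siALKBH5. Both siALKBH5 libraries lay far above both siControl libraries, and the 4 ratios of 1 siALKBH5 to 1 siControl library in CPM ran from 12.5 to 41.1. The mean level of CALB2 was 0.201 ± 0.109 CPM in siControl and 4.29 ± 1.15 CPM in siALKBH5 (SD, n = 2). Summed over libraries the rate of CALB2 counts was 20.7-fold higher in siALKBH5, with an exact 95% interval of 9.78 to 52.3 that covers counting error only. The fitted log2 fold change of CALB2 was 4.33 (SE 0.42).

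UMODL1 (ENSG00000177398, chr21:42062959-42143453, plus strand) had the most counts of the 4 genes. Its counts were 12 and 23 in siControl, against 157 and 136 in siALKBH5. The siALKBH5 libraries were nearly level with each other and both stood above the siControl libraries, with ratios between single libraries of 6.46 to 11.3 in CPM. The mean level of UMODL1 was 1.01 ± 0.377 CPM in siControl and 8.34 ± 0.1001 CPM in siALKBH5 (SD, n = 2). The rate of UMODL1 counts was 8.13-fold higher in siALKBH5 (exact 95% interval 5.71 to 11.9), and the fitted log2 fold change was 3.02 (SE 0.24). The antisense gene UMODL1-AS1 lies inside UMODL1 and had counts of 1 and 2 (siControl) and of 1 and 3 (siALKBH5). Whether the counting used strand is not given in the sources used here, so reads of overlapping genes cannot be told apart.

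APLP1 (ENSG00000105290, chr19:35867899-35879791, plus strand) had the fewest counts in siALKBH5 cells. Counts of 7 and 5 in siControl stood against 24 and 37 in siALKBH5. The groups did not overlap, but the lower siALKBH5 library was only 2.96-fold above the higher siControl library in CPM, and the largest such ratio was 8.09. The mean level of APLP1 was 0.356 ± 0.111 CPM in siControl and 1.77 ± 0.681 CPM in siALKBH5 (SD, n = 2). The rate of APLP1 counts was 4.93-fold higher in siALKBH5 (exact 95% interval 2.63 to 10.1), and the fitted log2 fold change was 2.29 (SE 0.48). NPHS1, which overlaps the start of APLP1 on the other strand, had counts of 1 and 3 (siControl) and of 2 and 2 (siALKBH5).

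B4GALNT1 (ENSG00000135454, chr12:57623410-57633355, minus strand) gave 12 and 8 counts in siControl, against 57 and 35 in siALKBH5. The lower siALKBH5 library was 2.86-fold above the higher siControl library in CPM, and the largest ratio was 6.86. The mean level of B4GALNT1 was 0.595 ± 0.212 CPM in siControl and 2.59 ± 0.654 CPM in siALKBH5 (SD, n = 2). In each group of B4GALNT1 the second library was the lower one, whereas for CALB2 the second library was the higher one in each group. The rate of B4GALNT1 counts was 4.46-fold higher in siALKBH5 (exact 95% interval 2.73 to 7.65), and the fitted log2 fold change was 2.13 (SE 0.39). SLC26A10, which overlaps B4GALNT1 on the other strand, was listed at 0 counts in all 4 libraries.

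**Figure D1:**
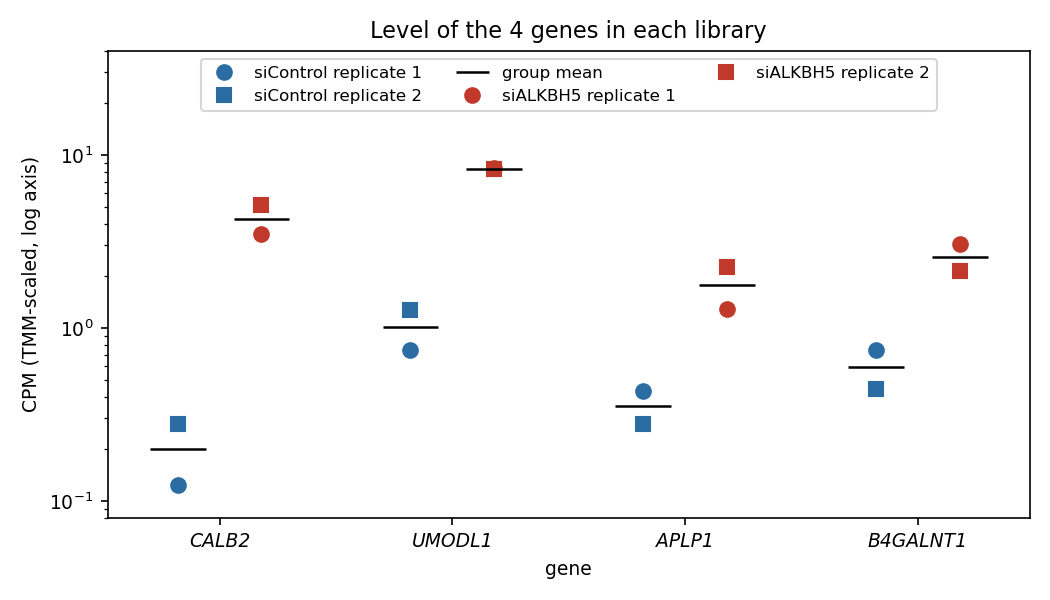
Level of CALB2, UMODL1, APLP1 and B4GALNT1 in CPM (log axis) in each of the 4 libraries, siControl in blue and siALKBH5 in red, circles for replicate 1, squares for replicate 2 and lines for the group means. For each gene both red points lie above both blue points, which largely restates the choice of these genes by this comparison. The gap is widest for CALB2, from a mean of 0.201 to 4.29 CPM.

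Per length, the 4 genes were among the weakly expressed genes in both groups. FPKM, counts per kilobase and per library total, were recomputed from the counts, the listed gene lengths and the library totals, and placed among the tested genes. In siControl, CALB2 had an FPKM of 0.0733 and 0.164, UMODL1 of 0.103 and 0.177, APLP1 of 0.12 and 0.0765, and B4GALNT1 of 0.0936 and 0.0559. Both UMODL1 values lay above both B4GALNT1 values, the other pairs of genes overlapped, and all lay at or below the 4.2th percentile. Genes low in both groups were filtered out before testing, and the 4 genes were chosen by fold change. Their low siControl percentiles thus partly restate the filter and the choice. In siALKBH5, CALB2 had the highest FPKM, 2.03 and 2.97, at the 36.4th and 44.5th percentile. UMODL1 came next with an FPKM of 1.15 and 1.12, near the 25.9th percentile. APLP1, with an FPKM of 0.349 and 0.609, and B4GALNT1, with 0.378 and 0.263, overlapped each other, and both stayed at or below the 16.7th percentile. All 4 genes thus remained under the median level of the tested genes in the siALKBH5 libraries.

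Of all 15075 genes tested, 19.3% rose and 17.3% fell (adjusted p under 0.05), and 1.62% rose with a log2 fold change of at least 1, the 4 genes among them by their choice. With DESeq2 in place of edgeR, 104 genes rather than 244 rose by that much. Of the 244, 171 had a mean of at least 1 CPM and 169 of these moved the same way in both deposited tables. Over all genes tested, with no minimum level, CALB2, UMODL1, APLP1 and B4GALNT1 stood 2nd, 8th, 19th and 23rd by fold change. Ordered in the same way, the 169 genes began with CALB2 and UMODL1, and APLP1 stood 3rd and B4GALNT1 5th. Without the rule on both tables APLP1 held place 4, which became 18 without siControl replicate 2 and 20 without siALKBH5 replicate 2. B4GALNT1 held place 6, which became 29 without siControl replicate 2 and 12 without siALKBH5 replicate 1. DESeq2 gave APLP1 and B4GALNT1 no adjusted p and so no place. TNC, which encodes the matrix protein tenascin C, lay between the last pair with 7 and 16 counts against 68 and 42 (log2 fold change 2.20). Just after B4GALNT1 came KLF2, a Krüppel-like transcription factor, with 15 and 21 counts against 91 and 69 (log2 fold change 2.10). CDHR1 (2.08), ITGA1 (2.02), NGEF (1.9994) and CDC45 (1.97) followed, so the log2 fold changes of APLP1 and B4GALNT1 were less than 1 SE from those of genes left outside. U2AF1 was kept out of this order because 1 library carried its difference, with 18 and 25 counts in siControl, but 215 and 17 in siALKBH5.

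Fold changes of this size were found mostly at low counts. The highest siControl sum among the 4 genes was 35 counts, in UMODL1. Of the 33 tested genes with a log2 fold change of at least 2, 31 were among the 1508 tested genes with 35 or fewer siControl counts. That cutoff was taken from UMODL1, so the 4 genes are among the 31 by construction. The siControl count is also the denominator of the fold change, so the 2 are not independent and this is a description only. CALB2 and APLP1 stayed under 10 counts in both siControl libraries and B4GALNT1 in 1 of them, whereas UMODL1 was above 10 counts in all 4 libraries.

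**Figure D2:**
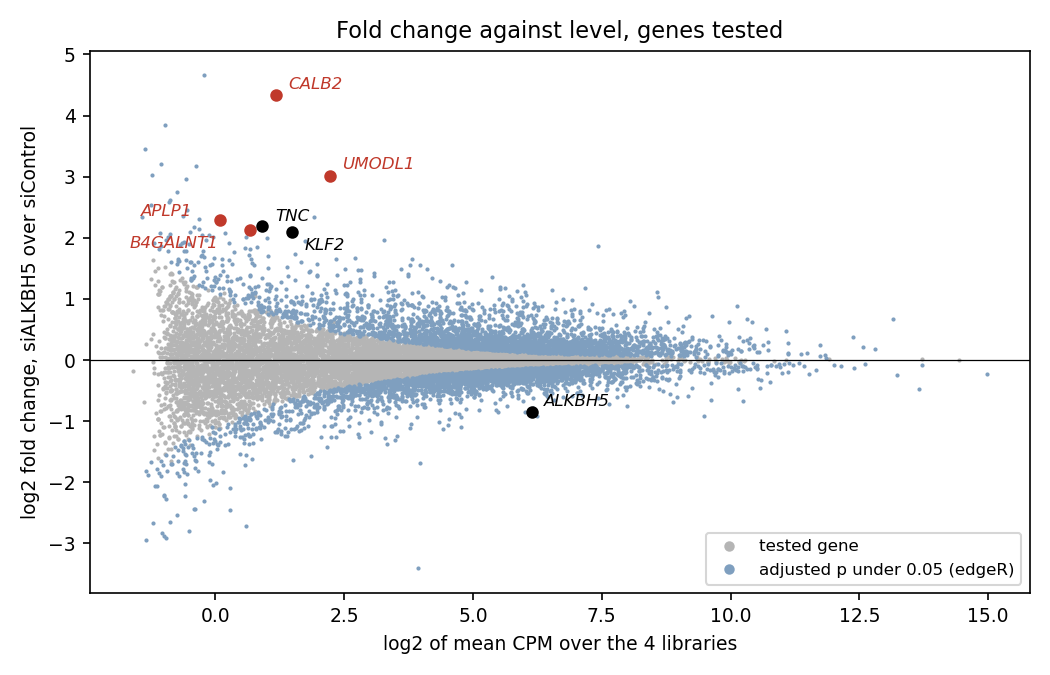
Log2 fold change of siALKBH5 over siControl against the log2 of mean CPM over the 4 libraries for the 15075 genes tested, with blue for an adjusted p under 0.05 and grey for the rest. CALB2 (4.33) and UMODL1 (3.02) have the largest rises among the 171 higher genes with a mean of at least 1 CPM. APLP1 (2.29) and B4GALNT1 (2.13) lie beside TNC (2.20) and KLF2 (2.10). The 4 genes were chosen by this fold change.

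The profiles of the 4 genes over the 4 libraries were compared by the Euclidean distance between centred log2 CPM values (prior count of 2) among genes with a mean of at least 1 CPM. This distance depends largely on the size of the fold change, by which the 4 genes were chosen. Nearness among them, or to the genes next in that order, thus largely restates the choice. The nearest profile to CALB2 was that of UMODL1, at a distance of 0.957, before TNC (1.88) and KLF2 (1.92). UMODL1 was nearest to TNC (0.928), then CALB2 (0.957) and KLF2 (0.998). APLP1 was nearest to ITGA1, an integrin subunit, at 0.182, then to NGEF (0.457) and the replication factor CDC45 (0.502). B4GALNT1 was nearest to EME1 (0.442), TEX19 (0.459) and CDC45 (0.46), with APLP1 at 0.892. CALB2 lay 2.04 from APLP1 and 2.23 from B4GALNT1, while UMODL1 lay 1.40 and 1.41 from them. With Pearson's correlation over the same 4 libraries in place of distance, other genes came first, PCDH1 for CALB2, DISP2 for UMODL1, RWDD2B for APLP1 and APOLD1 for B4GALNT1.

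Among genes related to CALB2, a list of 33 other EF-hand calcium buffers and sensors had 21 tested members, of which 9 rose, 2 fell and 10 did not pass. That is 42.9% higher and 9.52% lower, against 19.3% and 17.3% of all genes tested. The median log2 fold change of the tested EF-hand genes was 0.01, against -0.01 over all genes tested. CALB1, which encodes calbindin and is the closest relative of CALB2 in the list, rose from 42 and 41 counts to 126 and 142 (log2 fold change 1.65, SE 0.20, adjusted p = 3.8e-08). The calmodulin gene CALM3 rose by less (log2 fold change 0.46, adjusted p = 2.8e-15). SDF4 (0.24), CALU (0.26) and HPCAL1 (0.55) also rose, while the other classical buffers SCGN and PVALB were listed at 0 counts in every library. Per length, CALB1 had an FPKM of 0.367 and 0.321 in siControl and 0.937 and 1.197 in siALKBH5, so CALB2 was below CALB1 in siControl and above it in siALKBH5. With siALKBH5 replicate 2 left out, 7 EF-hand genes passed in place of 11.

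Among genes related to UMODL1, 16 other zona pellucida domain genes had 5 tested members, of which 1 rose (20%, against 19.3% of all genes tested). ZP3, an egg coat glycoprotein gene, rose from 41 and 50 counts to 113 and 97 (log2 fold change 1.16, SE 0.20, adjusted p = 2.1e-05), and it shares sequence with POMZP3, so its counts are uncertain. TGFBR3 had a log2 fold change of -0.42 (adjusted p = 0.055) and ENG of 0.51 (adjusted p = 0.31), both co-receptors for TGF-beta. UMOD, which encodes uromodulin itself, was listed at 0 counts in every library. The median of the 5 genes was 0.43.

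Among genes related to APLP1, 32 other genes of the APP family, the secretases and their adaptors had 29 tested members, of which 7 rose, 3 fell and 19 did not pass. The shares were 24.1% higher and 10.3% lower, against 19.3% and 17.3% over all genes. The paralogue APLP2 rose by 0.15 on the log2 scale, from 11229 and 12354 counts to 14271 and 12686 (SE 0.0213, adjusted p = 8.2e-07). APP had 4106 and 4621 counts against 4647 and 4123 (log2 fold change -0.04, adjusted p = 0.38). Per length, APP had an FPKM of 39.1 to 40.9 and APLP2 of 92.6 to 102.3 across the 4 libraries, both far above APLP1 in every library. The alpha-secretase gene ADAM10 fell (log2 fold change -0.19, adjusted p = 2.7e-05), whereas the beta-secretase gene BACE1 (0.02, adjusted p = 0.89) and its relative BACE2 (0.09, adjusted p = 0.32) did not pass. LRP1 (0.19), RTN4 (0.23), ITM2B (0.15) and RTN3 (0.22) rose, and the median of the list was -0.01.

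Among genes related to B4GALNT1, 23 other genes of ganglioside synthesis had 19 tested members, of which 5 rose, 3 fell and 11 did not pass. These shares of 26.3% and 15.8% stand beside 19.3% and 17.3% over all genes. B4GALT5, which makes lactosylceramide, rose (log2 fold change 0.25, SE 0.0268, adjusted p = 3.0e-09), while UGCG, which makes the glucosylceramide before it, fell (-0.18, adjusted p = 0.0017). ST3GAL5, the GM3 synthase whose product B4GALNT1 uses, had 65 and 49 counts against 47 and 55 (log2 fold change -0.20, adjusted p = 0.57). ST8SIA1, the GD3 synthase, had 6 and 11 counts against 19 and 4 (0.38, adjusted p = 0.66). Downstream of B4GALNT1, B3GALT4 (0.11, adjusted p = 0.31) and ST3GAL2 (0.30, adjusted p = 0.23) did not pass. ST6GALNAC4 (0.56) and the sialic acid synthesis enzyme GNE (0.43) rose, and ST3GAL1 (-0.46) and the CMP-sialic acid transporter SLC35A1 (-0.78) fell. The list median was 0.11.

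Of 17 genes of ganglioside and glycosphingolipid degradation, 15 were tested, 5 rose (33.3%, against 19.3% of all genes) and 1 fell (6.67%, against 17.3%). GM2A, the activator needed to break down GM2, the product of B4GALNT1, rose (log2 fold change 0.38, SE 0.0345, adjusted p = 5.2e-11). HEXA, a subunit of the enzyme that cuts GM2, rose by 0.20 on the log2 scale (adjusted p = 0.019). GLB1 (0.44) and GLA (0.57) rose, and ASAH1 fell (-0.48). The list median was 0.10.

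**Figure D3:**
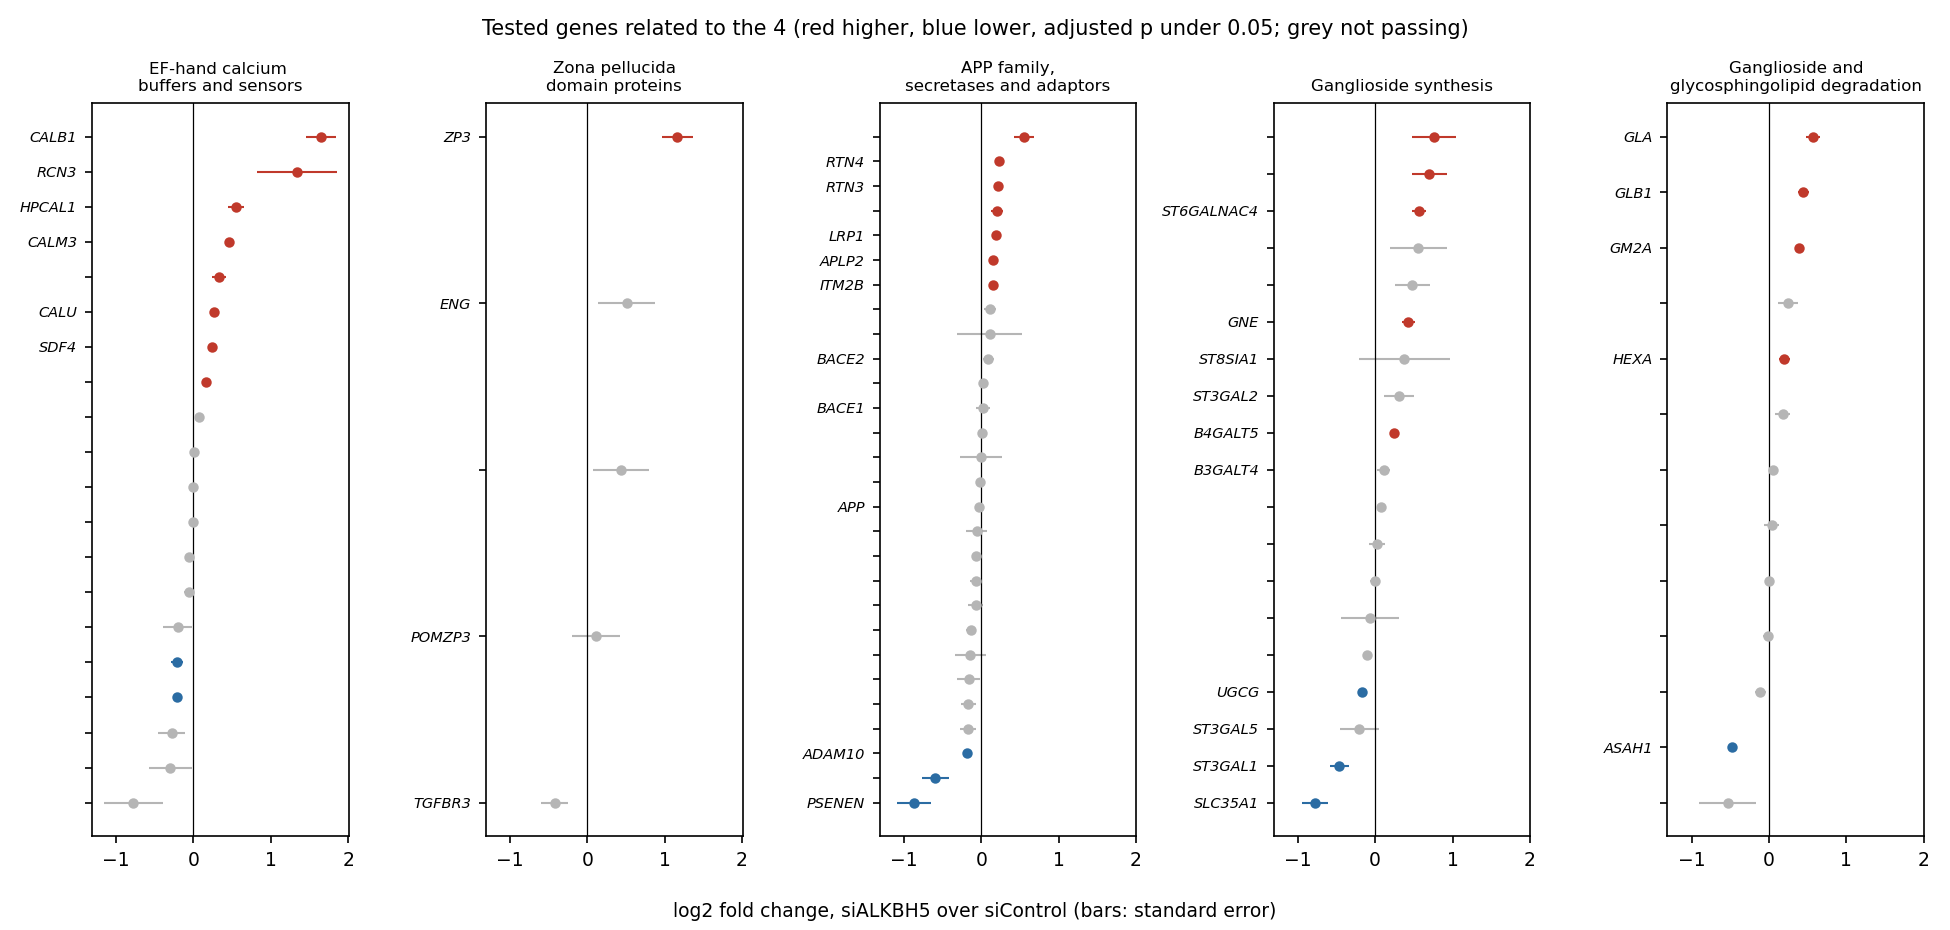
Log2 fold change (siALKBH5 over siControl, bars for the standard error) of tested genes in the 5 lists related to CALB2, UMODL1, APLP1 and B4GALNT1, which are themselves left out. Genes described in the text carry their names, genes that rose are red and genes that fell are blue (adjusted p under 0.05), and the largest rises are those of CALB1 (1.65), RCN3 (1.34) and ZP3 (1.16).

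The 4 genes are better known from other cell types, so markers of those were read beside them. Of 24 neuronal markers, 7 were tested, of which CNTN1 (log2 fold change 0.23), NEFL (0.51), SYN1 (0.64), MAP2 (0.54) and INA (1.27, adjusted p = 0.020) rose and ENO2 and SYP did not pass. The 5 are 71.4% of those tested, against 19.3% of all genes. The summed level of the neuronal markers was 133 and 138 CPM in siControl and 161 and 166 CPM in siALKBH5. CNTN1 alone held 97.5 and 103.4 CPM of it in siControl and 116.9 and 119.4 CPM in siALKBH5. Of the 24 neuronal markers, 8, DCX, STMN2 and GAP43 included, were listed at 0 in every library. Of 7 mesothelial markers 2 were tested. UPK3B rose (0.18, adjusted p = 0.0014), which is 50% of those tested, against 19.3% of all genes. MSLN had a log2 fold change of -0.04 and WT1 was listed at 0. The summed mesothelial level was 108 to 111 CPM in siControl and 118 to 128 CPM in siALKBH5. UPK3B alone held a mean of 107.8 CPM in siControl and 121.7 CPM in siALKBH5. Of 7 melanocyte markers 2 were tested and neither passed, and their summed level was 13.7 to 14.1 CPM in siControl and 11.99 to 14.2 CPM in siALKBH5. Of 8 fibroblast markers 3 were tested, and DCN (-1.25) and LUM (-1.08) fell, which is 66.7% of those tested, against 17.3% of all genes. Another 4 of the 8, PDGFRA, PDGFRB, THY1 and COL1A2, were listed at 0 in every library. The summed fibroblast level was 21.9 and 22.8 CPM in siControl and 18.7 and 19.1 CPM in siALKBH5. Most of it came from COL1A1, which did not pass, with a mean of 16.9 CPM in siControl and 16.4 CPM in siALKBH5. The part of these markers in the rise of CALB2 and the other 3 genes was not tested. The libraries are of 1 cell line, and fewer cells with a marker and less of its RNA per cell cannot be told apart in bulk libraries.

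The genes around the 4 loci were read beside them. Within 250000 bases of the 4 genes there were 124 listed genes, of which 47 were tested, 9 rose and 9 fell, or 19.1% in each direction, near the shares over all genes. Their log2 fold changes ran from -1.03 to 0.86, so 0 of the 47 doubled (a log2 fold change of 1). Only 1.62% of all 15075 genes tested passed and doubled or more, so 0 among 47 says little. The 4 genes themselves lay at 2.13 to 4.33, but they were chosen by this value. Whether the rise is confined to the 4 genes at these loci was not tested. DESeq2 called 9 of the neighbours in place of 18, and gave no adjusted p to 10.

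Around CALB2, 6 genes were tested and CMTR2, the nearest one upstream, fell (log2 fold change -0.36, adjusted p = 1.7e-04), while ZNF23, the nearest downstream, had a log2 fold change of -1.03 (adjusted p = 0.13). Around UMODL1, ZBTB21 (0.61, adjusted p = 1.1e-06) and C2CD2 (0.79) rose among 4 tested, both upstream, and ABCG1 on the other side had a log2 fold change of 0.15 (adjusted p = 0.70). Around APLP1, 17 genes were tested, 3 rose and 3 fell, and the nearest on either side, ARHGAP33 (-0.19, adjusted p = 0.69) and NFKBID (-0.27, adjusted p = 0.55), did not pass. Around B4GALNT1, 20 genes were tested, 4 rose and 5 fell, among them the nearest on either side, DTX3 (-0.56, adjusted p = 0.0021) and OS9 (-0.22, adjusted p = 1.0e-05). PSENEN, a gamma-secretase subunit gene that lies near APLP1, fell from 69 and 97 counts to 46 and 47 (log2 fold change -0.87, adjusted p = 0.0022), and it and C2CD2 were picked after their values were seen.

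**Figure D4:**
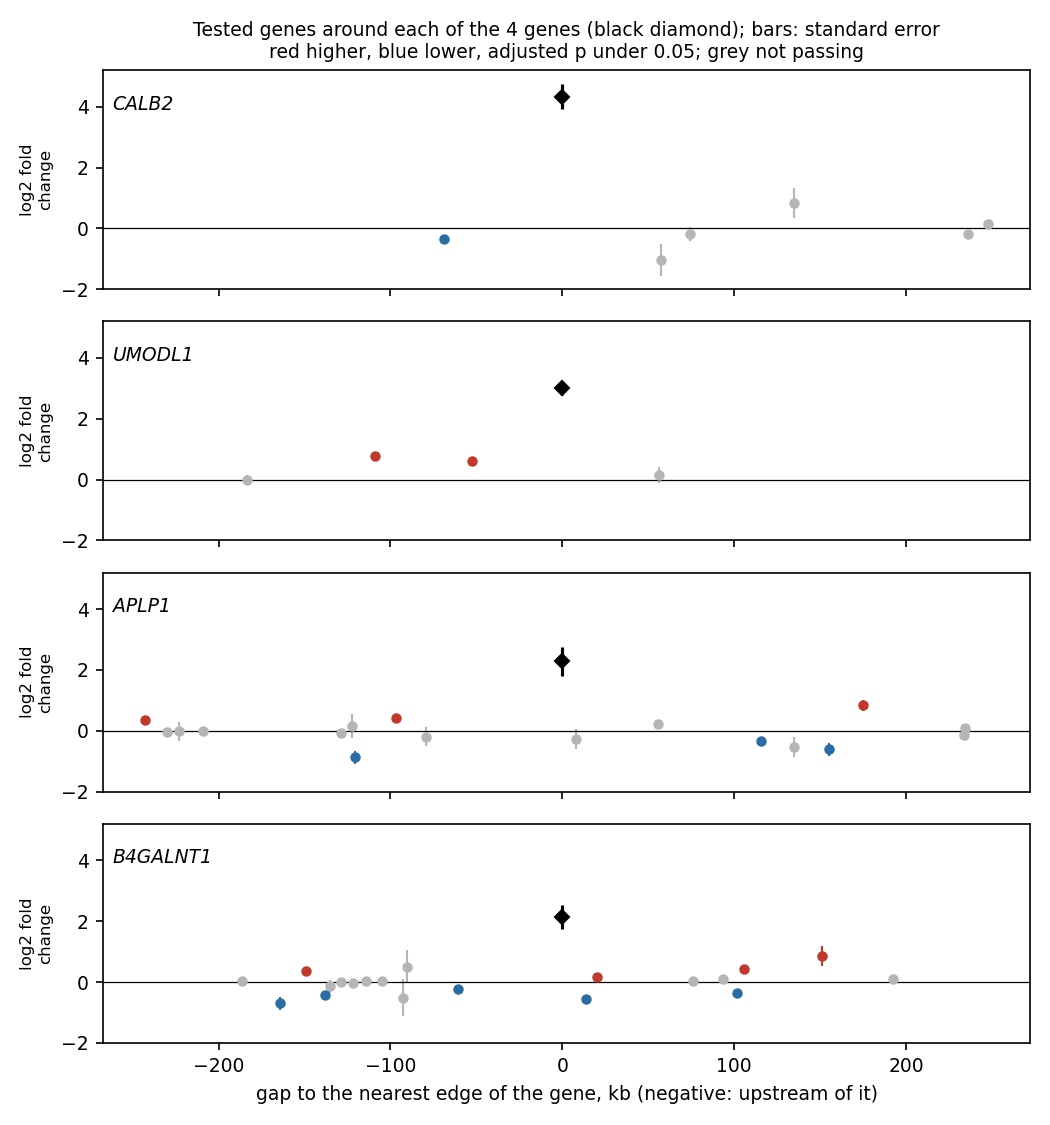
Log2 fold change (bars for the standard error) of each tested gene within 250000 bases of CALB2, UMODL1, APLP1 and B4GALNT1 against its gap in kb to the nearest edge of that gene, upstream to the left. The black diamonds mark the 4 genes, at 2.13 to 4.33, which were chosen by this fold change. The 47 neighbours lie between -1.03 and 0.86.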

How the data were processed

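Poly-A RNA of HaCaT cells was sequenced on an Illumina NovaSeq platform. The deposited tables hold raw counts per gene, 1 siControl and 1 siALKBH5 library in each, which the authors made without normalization; the submitters' processing notes name CASAVA, HISAT2 2.0.5, featureCounts 1.5.0-p3, DESeq2 1.20.0 and hg38, and gene identifiers follow GENCODE 29. The deposited gene length, in bases, was used for FPKM recomputed from the counts. The deposited FPKM, scaled within each table, and the authors' fold changes and p-values of 1 library against 1 were not used.

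A quasi-likelihood model of the counts without covariates (R 4.3.3, edgeR 4.0.16) compared siALKBH5 with siControl after filterByExpr and TMM scaling, with Benjamini-Hochberg adjustment over 15075 genes. Duplicates differed beyond sampling noise (chi-square per degree of freedom 1.74 in siControl and 1.85 in siALKBH5 over 15038 genes). Ratios of summed counts have exact 95% intervals for counting error only (scipy 1.17.1). The test was checked on simulated counts.

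The 4 genes and all gene lists were chosen with earlier results of these data known. Named besides them were ALKBH5, TNC and the next 5 genes in order, the 6 lowest adjusted p per related list plus fixed pathway genes, marker genes, overlapping and nearest tested genes, and the 3 nearest profiles. Some list members are counted but not reported here by name. Alternatives were DESeq2 1.42.0, other scalings and filters, a replicate block, other units, and each library left out. Promoters come from RefSeq (GRCh38.p14).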

Additional observations from a re-analysis of the deposited data

How the results depend on the processing

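Of 100 alternatives for the counts of genes passing and for ALKBH5, 92 stayed the same and 8 moved. A count was taken as the same within 1.5 times the reported value, and ALKBH5 if it fell with an adjusted p under 0.05. A reversal was possible only for ALKBH5, and 0 were found. DESeq2 called 1834 genes higher, 1247 lower, 104 higher with a log2 fold change of at least 1 (101 shared with edgeR) and 9 neighbours of the 4 loci; it gave no adjusted p to 2923 genes, which include 10 of the neighbours, APLP1 and B4GALNT1. The zona pellucida list had 2 genes passing with library size only and with the replicate block, and 1 to 2 with each library left out; without siALKBH5 replicate 1 it was 2. The EF-hand list had 7 to 11 with each library left out.

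For the 2 libraries of 1 table, the deviations from their group means had a correlation of 0.0337 over the genes tested. This value weighs all genes alike, low counts included, so it cannot tell whether these libraries share a batch. The replicate block gave 3091 genes higher and 2831 lower, 19 neighbours, and log2 fold changes of 4.36, 3.02, 2.29 and 2.12 for CALB2, UMODL1, APLP1 and B4GALNT1.

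Over 13 alternatives the log2 fold change ran from 1.63 to 5.02 for CALB2, 0.91 to 3.47 for UMODL1, 0.42 to 2.65 for APLP1 and 0.30 to 2.53 for B4GALNT1. The low ends are on the log2(FPKM + 1) scale, which shrinks weakly expressed genes. Ordered by fold change among higher genes with a mean of at least 1 CPM, with no rule on direction in both tables, CALB2 stood 1st in every fit and UMODL1 2nd or 3rd. With a minimum of 5 CPM the order had none of the 4 genes. With 2 to 23 counts a siControl library, the depth sets a wide interval on each fold.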
